A study of Mus musculus with 6 samples.

Results

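The vascular basement membrane is the sheet of matrix that wraps every brain microvessel, and 38 genes that encode its proteins or its main matrix receptor were followed here in RNA from brain microvessels of mice with a Tek-driven deletion of *Crif1* (*Gadd45gip1*). The genes were chosen by name, as a list of basement membrane components in 12 protein families. All 38 were found among the 23183 gene symbols of each library, and 37 had a mean of at least 1 FPKM (a count of fragments scaled by transcript length and library size) over the 6 libraries and were tested, among 14247 genes in all. The exception was *Lamb3*. The libraries came from 3 WT mice (TEK-cre, Crif1+/+) and 3 TEKCRIF1 KO mice (TEK-cre, Crif1 flox/flox) on C57BL/6, with 1 library per mouse. Both groups carried the Cre transgene. Cre was driven by Tek, which is active in endothelial cells and also in part of the blood lineage, and the microvessels held other cells that keep *Crif1*. The labels give no age or sex for these mice.

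A basement membrane is built from a network of laminin trimers, each with an alpha, a beta and a gamma chain, and a network of collagen IV. Nidogens and the heparan sulfate proteoglycans perlecan and agrin link the networks, and dystroglycan and integrins anchor cells to laminin. In brain microvessels endothelial cells, pericytes, fibroblasts and the endfeet of astrocytes all contribute chains, and the membrane between vessel and brain is part of the blood-brain barrier.

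The targeted gene was read first. *Gadd45gip1* had 18.8, 15.3 and 16.5 FPKM in the WT libraries, in the order of their numbers, against 10.8, 7.54 and 10.4 FPKM in the KO libraries, with no overlap, and its log2 fold change was −0.77 (SE 0.22, limma p = 0.00534, exact permutation p = 0.1, adjusted p = 0.841). Depth could only be estimated from the spacing of low values, at 6400000 to 11700000 fragments, so that 3 fragments on a 1-kb transcript were worth 0.26 to 0.47 FPKM. The 9 endothelial markers summed to 1018 to 1425 FPKM in WT and to 895 to 1218 FPKM in KO, and none was at 0. KO 1 and KO 3 stood apart through choroid plexus transcripts: the 5 markers of choroid plexus epithelium (*Ttr*, *Folr1*, *Kl*, *Aqp1* and *Kcnj13*) summed to 2943 to 3410 FPKM in WT, to 3013 FPKM in KO 2, and to 8942 and 10745 FPKM in KO 1 and KO 3. Counts are therefore also given without these libraries. Fold changes below are differences of log2(FPKM + 1), KO minus WT, which understate the change of low genes.

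Differences of the basement membrane genes between KO and WT microvessels were modest, and 9 were lower in KO before adjustment and 0 after it. Of the 37 tested, 27 had a log2 fold change below 0 (73.0%, against 50.8% of all genes tested) and 10 above, and the median was −0.27, against −0.0062 over all genes tested. By limma, 9 members were lower at an unadjusted p under 0.05 (24.3%, against 3.11% of all genes tested in that direction), and 0 were higher (against 2.77%). The 9 were the laminin chains *Lama2*, *Lamc1* and *Lamc3*, the collagens *Col4a6* and *Col15a1*, fibronectin (*Fn1*), *Fbln1*, *Smoc1* and *Smoc2*. In 13 members every KO library was below every WT library (35.1%, against 5.70% of all genes tested), and in 1, *Col4a4*, every KO library was above every WT library (against 5.37%). No member passed after Benjamini-Hochberg adjustment over all genes tested (limma, 0%, as for the 14247 genes), and the smallest adjusted p of a member was 0.841. The exact two-sided permutation test of 1 gene cannot go below p = 0.1 with 3 mice against 3, and each member without overlap had that value. In RNA from whole microvessels, fewer cells of a type and less RNA per cell cannot be told apart.

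**Figure D1:**
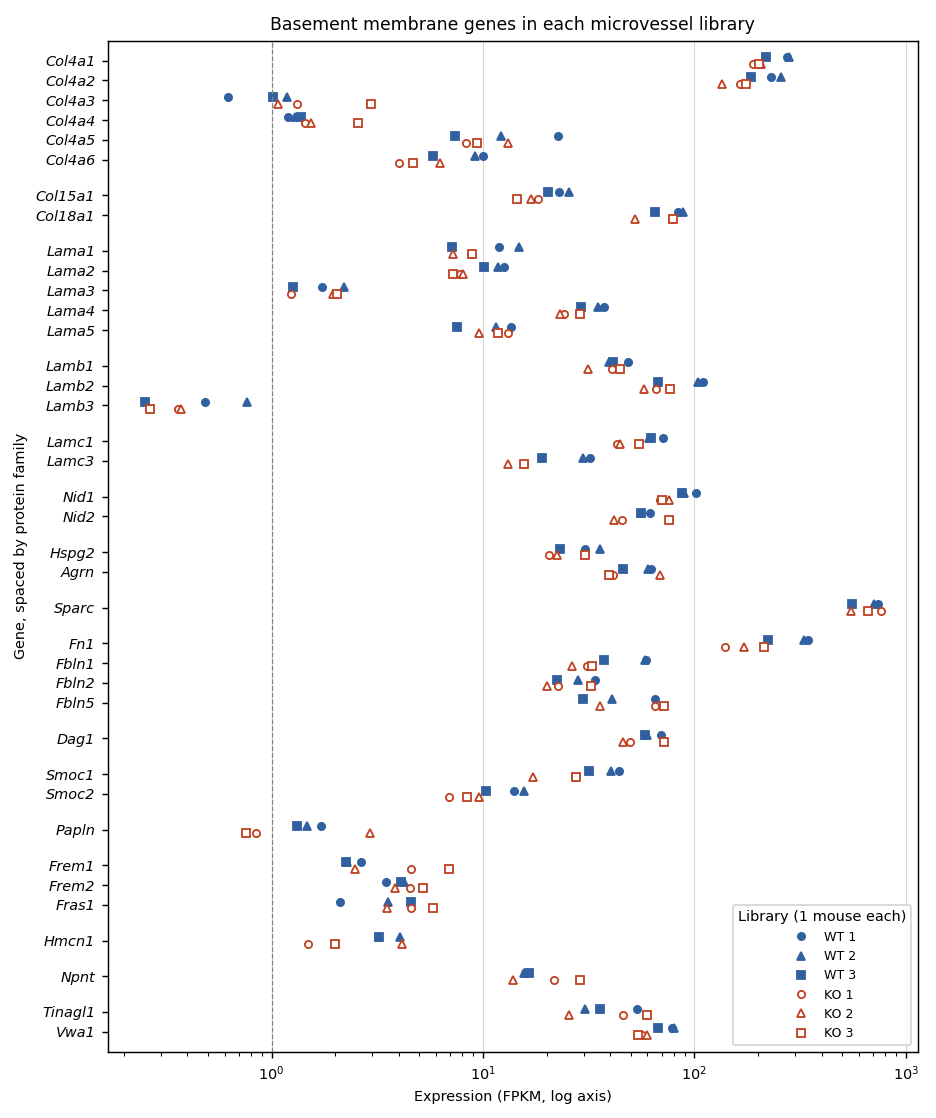
Each row is 1 of the 38 genes and each point its expression in 1 library, in FPKM on a log axis, with filled blue symbols for WT and open red symbols for KO. The dashed line marks 1 FPKM. *Sparc*, *Fn1*, *Col4a1* and *Col4a2* stand highest, and *Lamb3* lies below the line in all 6 libraries.

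Transcript composition moved with these values. Across 14156 genes with a length, log2 fold changes had a Spearman correlation of −0.347 with GC content and of −0.068 with transcript length (a description over genes of the same 6 libraries). The tested members had a median GC content of 53.5% and a median length of 6091 bases, against 50.0% and 3384 bases for all genes tested. With both trends removed, the median of the members was −0.053, 22 of 37 were below 0 (59.5%, against 50.3% of all genes tested), and 5 were lower at an unadjusted limma p under 0.05 (13.5%, against 2.45% of all genes tested): *Lama2*, *Fn1*, *Fbln1*, *Smoc1* and *Smoc2*. Groups then stayed apart in 6 members that were lower (16.2%, against 4.98% of all genes tested), namely *Lama2*, *Nid1*, *Fbln1*, *Smoc1*, *Smoc2* and *Vwa1*, and in 1 that was higher, *Col4a4* (against 4.79%). Which of the values, as deposited or corrected, is nearer to the RNA in the vessels was not tested.

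**Figure D2:**
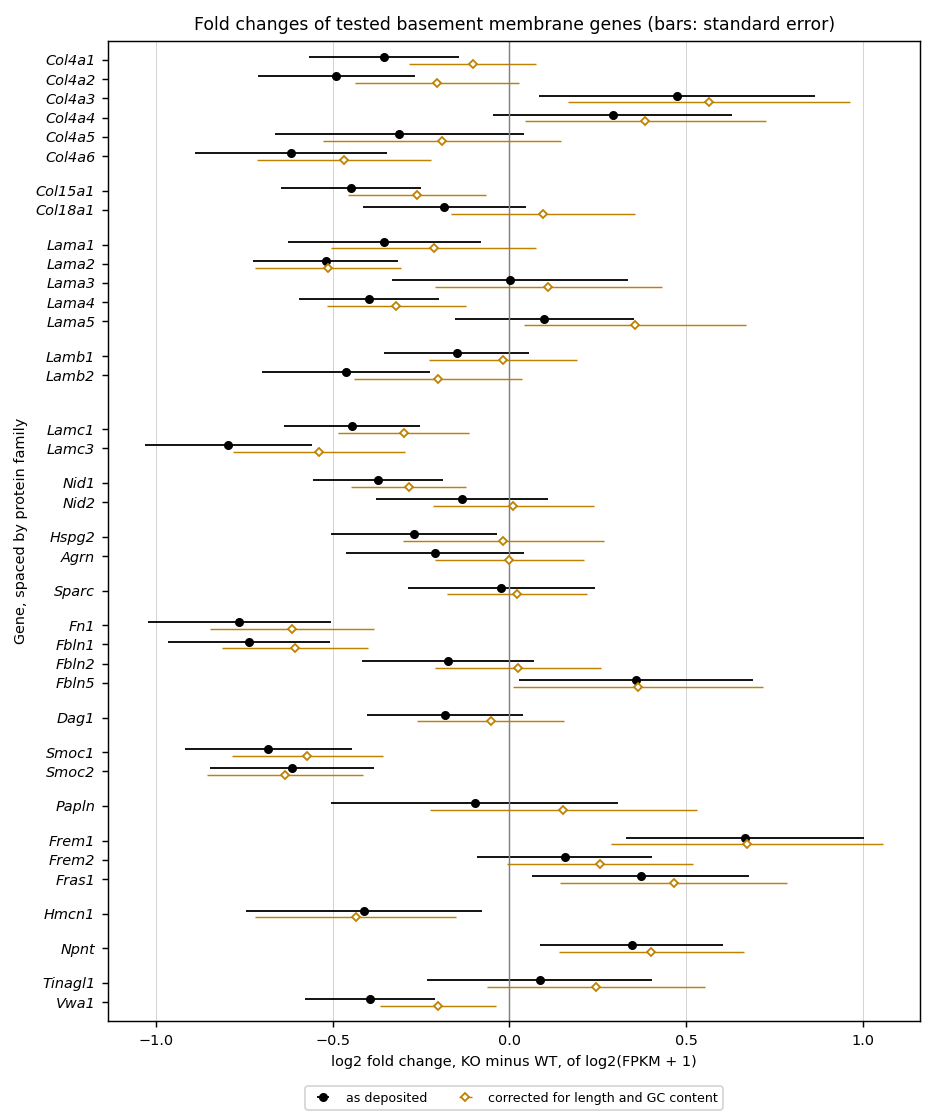
Each row is 1 tested gene, with its log2 fold change in log2(FPKM + 1), KO minus WT, as deposited (black circles) and after removal of trends on transcript length and GC content (open diamonds), and bars show the standard error. Most black circles lie left of 0. *Fn1*, *Fbln1*, *Smoc1*, *Smoc2* and *Lama2* keep most of their distance after the correction, as do *Lama4*, *Nid1* and *Col4a6* among others.

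The collagen IV genes lie in head-to-head pairs, and the start of the main pair is shown because both of its genes were lower without overlap. In GRCm38 (mm10), *Col4a1* (ENSMUSG00000031502) runs on the minus strand of chr8:11198423-11312826 and *Col4a2* (ENSMUSG00000031503) on the plus strand of chr8:11312805-11449287, so that their first exons share 22 bases. The stretch below is the plus strand of chr8:11312801-11312830 (RefSeq, GRCm38.p6), with the shared exonic bases in capitals.
Col4a1 and Col4a2 start: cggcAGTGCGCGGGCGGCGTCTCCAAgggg
*Col4a4* and *Col4a3* start 71 bases apart on chromosome 1, and *Col4a6* and *Col4a5* 1308 bases apart on the X chromosome.

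Promoter sequence is shown for members lower in KO whose groups stayed apart both as deposited and after correction. Of these, *Lama2*, *Nid1* and *Fbln1* had a window in the set of RefSeq promoter windows used here. *Smoc1*, *Smoc2* and *Vwa1* had none in that set, although GENCODE M21 gives their starts. Each run reads 5′ to 3′ on the gene's own strand and ends at the base before its first RefSeq or GENCODE transcript start there (GRCm38.p6), although GENCODE M21 gives *Lama2* a retained-intron transcript that starts further upstream. The runs are the minus strand of chr10:27616943-27617192 for *Lama2*, the plus strand of chr13:13437352-13437550 for *Nid1*, and the plus strand of chr15:85205699-85205948 for *Fbln1*. Capitals mark 3 motifs on either strand. The GC box was searched as GGGCGG. The CCAAT box was searched by those letters. The TATA box was searched as TATAAA.
Lama2: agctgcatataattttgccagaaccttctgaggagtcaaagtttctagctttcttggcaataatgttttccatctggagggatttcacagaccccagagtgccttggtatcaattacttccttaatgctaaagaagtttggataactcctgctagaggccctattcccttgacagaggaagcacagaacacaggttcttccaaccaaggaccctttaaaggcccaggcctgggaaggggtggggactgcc
Nid1: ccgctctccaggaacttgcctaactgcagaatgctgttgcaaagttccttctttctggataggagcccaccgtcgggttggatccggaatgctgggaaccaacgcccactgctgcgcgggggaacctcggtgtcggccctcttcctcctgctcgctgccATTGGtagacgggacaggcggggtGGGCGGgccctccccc
Fbln1: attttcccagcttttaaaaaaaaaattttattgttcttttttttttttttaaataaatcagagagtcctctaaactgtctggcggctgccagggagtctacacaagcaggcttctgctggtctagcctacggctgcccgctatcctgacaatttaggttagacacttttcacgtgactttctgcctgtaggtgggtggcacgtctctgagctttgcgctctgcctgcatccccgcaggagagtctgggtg
The *Nid1* stretch held 1 GC box and 1 CCAAT box, and the other 2 held none of the 3 motifs. Their GC content was 47.2% for *Lama2*, 63.8% for *Nid1* and 46.4% for *Fbln1*. In the 35 RefSeq windows of 300 bases that belonged to 26 of the 38 members, a GC box was found in 57.1%, a CCAAT box in 37.1% and a TATA box in 0, against 35.7%, 37.4% and 13.6% of all 32851 windows. These matches describe letters and not bound sites.

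*Col4a1* and *Col4a2* encode the chains of the trimer found in every basement membrane. *Col4a1* was at 273, 282 and 217 FPKM in the WT libraries and at 189, 206 and 203 FPKM in the KO libraries, a log2 fold change of −0.36 (SE 0.21, limma p = 0.125, exact permutation p = 0.1). *Col4a2* was at 230, 256 and 184 FPKM in WT and at 164, 135 and 176 FPKM in KO, a log2 fold change of −0.49 (SE 0.22, limma p = 0.0528, exact permutation p = 0.1). All KO libraries were below all WT libraries in both genes, with WT 3 the lowest WT library each time. Neither passed the test, and after the length and GC correction the groups overlapped in both, with log2 fold changes of −0.10 and −0.20. The ratio of *Col4a1* to *Col4a2* was 1.10 to 1.19 in WT, 1.16 and 1.15 in KO 1 and KO 3, and 1.53 in KO 2 (exact permutation p = 0.6, 0.8 after adjustment over the 20 shares and ratios examined).

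The minor collagen IV chains did not share one direction. *Col4a6*, at 9.95, 9.13 and 5.80 FPKM in WT and 4.03, 6.28 and 4.69 FPKM in KO, was lower by limma (log2 fold change −0.62, SE 0.27, p = 0.0454, exact permutation p = 0.2, and limma p = 0.0885 after correction), although KO 2 was above WT 3. Its neighbour *Col4a5* was at 22.6, 12.2 and 7.38 FPKM in WT and 8.28, 13.2 and 9.38 FPKM in KO, and the high WT 1 library stood far above the others, so that the fitted difference was −0.31 with it and 0.079 without it (limma p = 0.399 with all libraries, exact permutation p = 0.7). *Col4a3* and *Col4a4*, chains of the kidney glomerulus and of epithelial membranes, were near the limit of expression. *Col4a4* was at 1.20, 1.30 and 1.37 FPKM in WT and 1.43, 1.54 and 2.57 FPKM in KO (log2 fold change 0.29, limma p = 0.407, exact permutation p = 0.1). *Col4a3* was at 0.620, 1.18 and 1.02 FPKM in WT and 1.32, 1.07 and 2.97 FPKM in KO (0.47, limma p = 0.253, exact permutation p = 0.2). In both the highest value was that of KO 3, the library with the most choroid plexus transcripts, whose part in these values was not tested. As shares of all collagen IV transcripts both were small and higher without overlap in KO, at 0.116% to 0.244% in WT and 0.295% to 0.744% in KO for *Col4a3* and at 0.224% to 0.330% and 0.389% to 0.643% for *Col4a4* (exact permutation p = 0.1 and adjusted p = 0.5 for each).

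The multiplexins *Col15a1* and *Col18a1* encode collagens that carry heparan sulfate or chondroitin sulfate chains, and the end of collagen XVIII is cut off as endostatin. *Col15a1* was at 22.8, 25.6 and 20.2 FPKM in WT and at 18.2, 16.8 and 14.5 FPKM in KO, lower without overlap (log2 fold change −0.45, SE 0.20, limma p = 0.0469, exact permutation p = 0.1). That call was lost on correction, where the log2 fold change was −0.26. *Col18a1*, at 83.8, 87.9 and 65.2 FPKM in WT, was at 78.3 and 79.3 FPKM in KO 1 and KO 3 and at 52.4 FPKM in KO 2, so that the groups overlapped (−0.18, limma p = 0.443, exact permutation p = 0.5).

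Among the laminin alpha chains, *Lama2* and *Lama4* were lower without overlap and *Lama5* was not. *Lama2* encodes the chain that astrocytes and mural cells place in the outer membrane of brain vessels and that dystroglycan binds. It was at 12.5, 11.7 and 10.2 FPKM in WT and at 7.78, 8.07 and 7.19 FPKM in KO, a log2 fold change of −0.52 (SE 0.21, limma p = 0.0299, exact permutation p = 0.1) that hardly moved on correction (−0.51, p = 0.0337). Every KO library was below the lowest WT library, WT 3. *Lama4*, the chain of endothelial laminin made along the whole vascular tree, was at 37.4, 35.0 and 29.0 FPKM in WT and 24.2, 23.1 and 28.9 FPKM in KO (−0.40, SE 0.20, limma p = 0.0721, exact permutation p = 0.1), with KO 3 just under WT 3. *Lama5*, the other endothelial alpha chain, was at 13.6, 11.5 and 7.52 FPKM in WT and 13.1, 9.55 and 11.8 FPKM in KO (0.10, limma p = 0.704, exact permutation p = 0.8).

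The balance of these chains was read as each chain's share of the summed alpha chain FPKM, which does not depend on the scaling between libraries and was taken from the values as deposited, with no length and GC correction. The *Lama5* share was 17.6%, 15.3% and 13.7% in WT and 23.8%, 19.2% and 20.1% in KO, and the ratio of *Lama4* to *Lama5* was 2.76, 3.04 and 3.86 in WT and 1.85, 2.42 and 2.44 in KO. Neither measure overlapped between the groups, and each had an exact permutation p of 0.1 and an adjusted p of 0.5. *Lama4* remained the leading alpha chain, at 43.9% to 52.7% of the class in all 6 libraries. *Lama1*, the chain that pial and perivascular fibroblasts make, was at 7.10 to 14.8 FPKM in WT and 7.21 to 8.88 FPKM in KO (−0.35, limma p = 0.223, exact permutation p = 0.4). *Lama3*, an epithelial chain, was at 1.27 to 2.20 FPKM in WT and 1.23 to 2.03 FPKM in KO, with a log2 fold change of 0.0018.

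**Figure D3:**
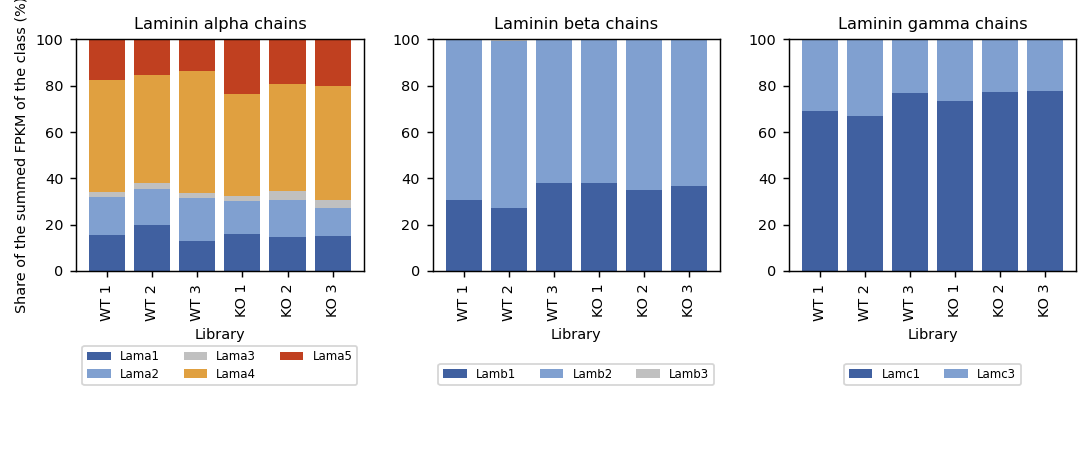
Stacked bars give each laminin chain's share of the summed FPKM of its class (alpha, beta or gamma, in %) in each of the 6 libraries. The *Lama5* share (red) spans 13.7% to 17.6% in WT and 19.2% to 23.8% in KO, and the *Lamc3* share spans 22.2% to 33.0% over all libraries.

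Both gamma chains were lower without overlap. *Lamc3*, which encodes gamma 3, had the lowest fitted fold change of the 37 members. It was at 32.2, 29.9 and 18.9 FPKM in WT and at 15.6, 13.2 and 15.6 FPKM in KO (log2 fold change −0.80, SE 0.24, limma p = 0.0071, exact permutation p = 0.1). The KO libraries lay close together and WT 3 lay nearer to them than to the other WT libraries. After correction its value was −0.54, with groups that overlapped. *Lamc1*, which encodes the gamma 1 chain of most laminins, was at 71.2, 60.7 and 62.4 FPKM in WT and at 43.0, 44.7 and 54.8 FPKM in KO (−0.44, SE 0.19, limma p = 0.0437, exact permutation p = 0.1, and −0.30, p = 0.139, after correction). The *Lamc3* share of the gamma chains was 31.1%, 33.0% and 23.3% in WT and 26.6%, 22.8% and 22.2% in KO, which overlapped (exact permutation p = 0.2, adjusted p = 0.615).

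The beta chains overlapped between the groups. *Lamb2*, the beta chain of mature vascular laminin, was at 110 and 104 FPKM in WT 1 and WT 2, 67.4 FPKM in WT 3, and 66.2, 57.5 and 76.4 FPKM in KO (−0.46, SE 0.24, limma p = 0.0800, exact permutation p = 0.2). *Lamb1* was at 39.4 to 48.3 FPKM in WT and 31.4 to 44.5 FPKM in KO (−0.15, limma p = 0.484, exact permutation p = 0.5). *Lamb3*, the epithelial beta chain that was not tested, was at 0.251 to 0.762 FPKM in WT and 0.265 to 0.375 FPKM in KO, which corresponds to an estimated 12 fragments in the library with fewest. *Lamb2* made up 67.8% ± 5.25 (SD, n = 3) of the beta chain transcripts in WT and 63.0% ± 1.40 in KO (exact permutation p = 0.3).

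Of the linkers between the networks, *Nid1* was lower without overlap and the others overlapped. *Nid1*, which encodes nidogen-1, was at 102, 89.7 and 87.6 FPKM in WT and at 68.9, 75.7 and 70.4 FPKM in KO, and its groups stayed apart after correction (log2 fold changes −0.37 and −0.29, limma p = 0.0721 and 0.111, exact permutation p = 0.1 as deposited). *Nid2*, encoding nidogen-2, was at 55.7 to 61.8 FPKM in WT, at 45.3 and 41.9 FPKM in KO 1 and KO 2, and at 75.8 FPKM in KO 3 (−0.13, limma p = 0.592, exact permutation p = 0.7). The ratio of *Nid1* to *Nid2* was 1.57 to 1.66 in WT, 1.52 and 1.81 in KO 1 and KO 2, and 0.928 in KO 3. Perlecan (*Hspg2*) was at 30.4, 35.7 and 23.1 FPKM in WT and 20.5, 22.4 and 30.5 FPKM in KO (−0.27, limma p = 0.275, exact permutation p = 0.3). Agrin (*Agrn*), at 62.4, 60.6 and 46.1 FPKM in WT, was at 41.2 and 39.4 FPKM in KO 1 and KO 3 and at 68.5 FPKM in KO 2 (−0.21, limma p = 0.421, exact permutation p = 0.5). KO 3 was thus the high KO library for *Nid2* and *Hspg2*, and KO 2 the high one for *Agrn*. Dystroglycan (*Dag1*), the receptor that binds laminin, perlecan and agrin through its sugar chains, was at 58.4 to 69.2 FPKM in WT and 49.6, 45.9 and 72.0 FPKM in KO (−0.18, limma p = 0.425, exact permutation p = 0.5).

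Among members that regulate or decorate the membrane, fibronectin, 1 fibulin and both SMOC genes were lower at an unadjusted limma p under 0.05. *Fn1* encodes fibronectin, a glycoprotein of plasma and of growing vessels. It was at 343, 330 and 223 FPKM in WT and at 139, 172 and 214 FPKM in KO (−0.76, SE 0.26, limma p = 0.0143, exact permutation p = 0.1, and −0.62, p = 0.025, after correction). WT 3 and KO 3 lay close together, and after correction the groups overlapped. *Fbln1* encodes fibulin-1, which binds fibronectin and nidogen, and was at 59.2, 58.6 and 37.4 FPKM in WT and at 31.1, 26.3 and 32.9 FPKM in KO (−0.74, SE 0.23, limma p = 0.00908, exact permutation p = 0.1, and −0.61, p = 0.0158, after correction). It was the only member with an unadjusted p under 0.05 in all 16 alternative settings, with p between 0.00235 and 0.0455. *Lamc3* kept it in 15, *Smoc1* in 14, *Fn1* in 13 and *Smoc2* in 12.

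*Smoc1* and *Smoc2* encode secreted calcium-binding relatives of SPARC. *Smoc1* was at 43.9, 40.4 and 31.9 FPKM in WT and at 27.3, 17.3 and 27.6 FPKM in KO (−0.68, SE 0.24, limma p = 0.0164, exact permutation p = 0.1). *Smoc2* was at 14.0, 15.6 and 10.3 FPKM in WT and at 6.89, 9.56 and 8.41 FPKM in KO (−0.62, SE 0.23, limma p = 0.0247, exact permutation p = 0.1). The groups stayed apart in both after correction, at log2 fold changes of −0.57 and −0.63, and both kept an unadjusted limma p under 0.05. *Sparc* itself, a collagen-binding protein and the most abundant transcript of the list, was at 738, 706 and 559 FPKM in WT and at 761, 548 and 664 FPKM in KO (−0.02, SE 0.26, limma p = 0.930, exact permutation p = 0.9).

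The other fibulins overlapped. *Fbln2* was at 22.4 to 34.0 FPKM in WT and 20.1 to 32.5 FPKM in KO (−0.17, limma p = 0.490, exact permutation p = 0.6), and *Fbln5*, an elastic fibre protein, was at 64.9, 40.8 and 29.7 FPKM in WT and 65.4, 35.7 and 71.9 FPKM in KO (0.36, limma p = 0.306, exact permutation p = 0.5). Hemicentin-1 (*Hmcn1*) was at 3.21 to 4.05 FPKM in WT, at 1.49 and 1.99 FPKM in KO 1 and KO 3, and at 4.13 FPKM in KO 2 (−0.41, limma p = 0.247, exact permutation p = 0.4). *Vwa1*, which encodes a perlecan-binding protein, was at 78.3, 79.8 and 67.1 FPKM in WT and at 56.5, 59.5 and 54.3 FPKM in KO, apart before and after correction (−0.39 and −0.20, limma p = 0.0583 and 0.249, exact permutation p = 0.1 as deposited). *Tinagl1*, which encodes a secreted matricellular protein, was at 30.5 to 53.5 FPKM in WT and 25.6 to 59.4 FPKM in KO (0.086, limma p = 0.792, exact permutation p = 0.9). *Papln*, which encodes papilin, was at 1.32 to 1.72 FPKM in WT, at 0.840 and 0.758 FPKM in KO 1 and KO 3, and at 2.92 FPKM in KO 2 (−0.10, limma p = 0.813, exact permutation p = 1).

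The FRAS/FREM proteins, which join epithelia to the matrix beneath them, and nephronectin, an integrin ligand, formed the family whose fold changes were all above 0. None passed the test. *Frem1* was at 2.64, 2.27 and 2.24 FPKM in WT and at 4.59, 2.48 and 6.93 FPKM in KO (0.67, SE 0.34, limma p = 0.0757, exact permutation p = 0.2). Nephronectin (*Npnt*) was at 15.7, 15.6 and 16.5 FPKM in WT and at 21.6, 13.9 and 28.7 FPKM in KO (0.35, SE 0.26, limma p = 0.211, exact permutation p = 0.4). In both, KO 1 and KO 3 were above all WT libraries and KO 2 was within or below them, as for the summed choroid plexus markers, of which 5 of 5 had fold changes above 0. The same order was seen in *Frem2* (4.52, 3.85 and 5.18 FPKM in KO) and, outside this family, in *Fbln5* and *Col4a3*. *Fras1* was at 2.11 to 4.57 FPKM in WT and 3.53 to 5.80 FPKM in KO (0.37, limma p = 0.255, exact permutation p = 0.5), and *Frem2* at 3.48 to 4.25 FPKM and 3.85 to 5.18 FPKM (0.16, limma p = 0.544, exact permutation p = 0.3). The median deviation of the 4 genes from the WT mean was 0.39 in KO 1, 0.011 in KO 2 and 0.74 in KO 3 on the log2 scale. Without KO 1 and KO 3, the log2 fold change of *Frem1* was 0.044 and that of *Npnt* −0.19. The part of choroid plexus transcripts in these values was not tested.

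**Figure D4:**
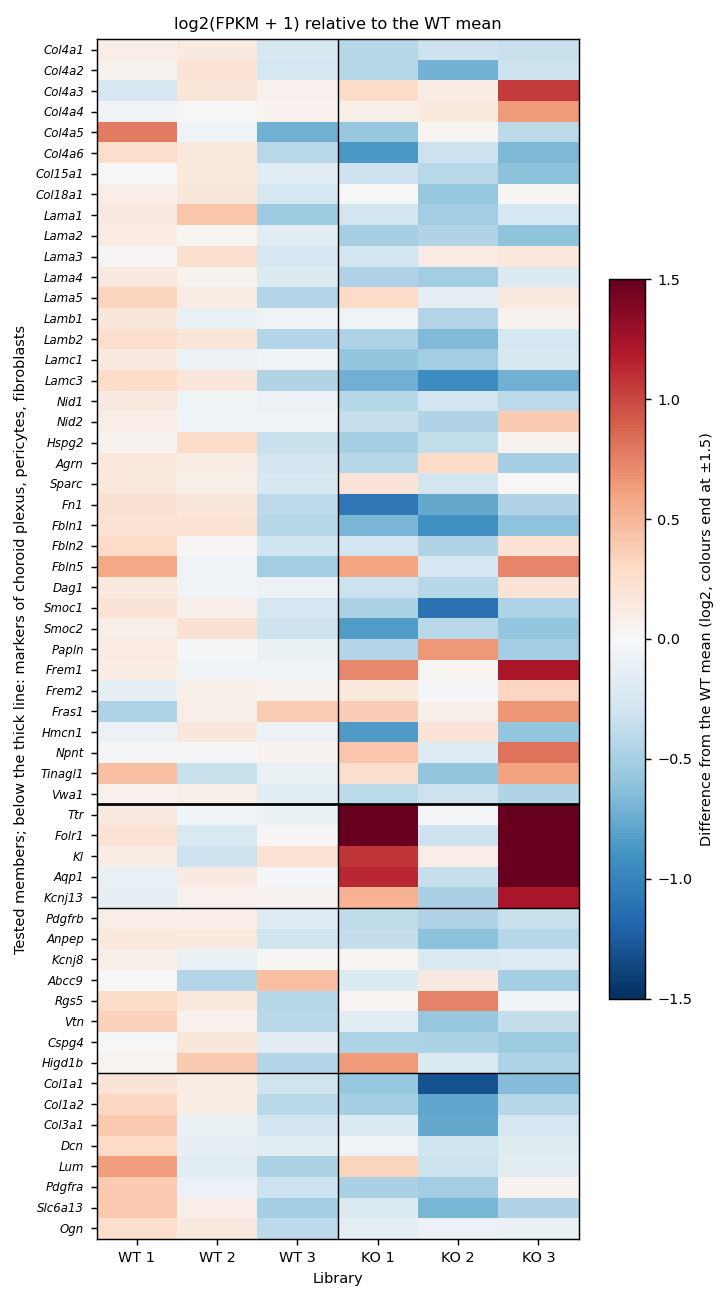
Colours give log2(FPKM + 1) in each library minus the WT mean for the 37 tested genes and, below the thick line, for all markers of choroid plexus (*Ttr* to *Kcnj13*), pericytes (*Pdgfrb* to *Higd1b*) and fibroblasts (*Col1a1* to *Ogn*). The 3 KO columns are mostly blue among the basement membrane genes. *Frem1*, *Npnt*, *Fbln5* and the choroid plexus markers are among those that are red in KO 1 and KO 3.

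The median deviation of the 37 members from the WT mean, library by library, was 0.13, 0.09 and −0.24 for WT and −0.40, −0.37 and −0.24 for KO on the log2 scale. WT 3 thus lay at the level of KO 3. Without KO 1 and KO 3, KO 2 alone stood against the 3 WT libraries and was assumed to vary as they do. The median of the members was then −0.37, against −0.022 over all genes tested. Of the 9 members called with all libraries, only *Lamc3* and *Fbln1* were called without WT 1, as without WT 2. Without KO 1 only these and *Smoc1* were. Lower at an unadjusted limma p under 0.05 were thus 2, 2 and 3 of the 37 members, against 2.45%, 1.42% and 2.15% of all genes tested.

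**Figure D5:**
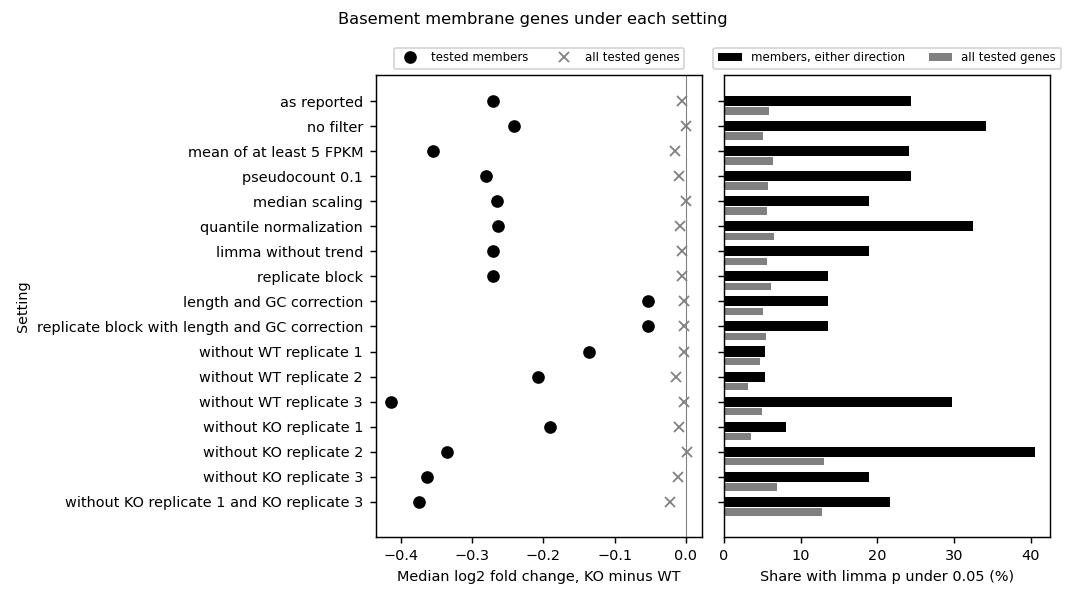
The left panel gives the median log2 fold change (KO minus WT) of the tested members (circles) and of all tested genes (crosses) under each setting, and the right panel the share of each with an unadjusted limma p under 0.05 in either direction (%). The members' median is −0.27 as reported, −0.053 with the length and GC correction, −0.14 without WT 1 and −0.41 without WT 3.

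Markers of the cells of the vessel wall mostly had fold changes below 0 beside the lower members, except those of smooth muscle. The 5 smooth muscle markers were all above 0 with overlapping groups, and summed to 234 to 583 FPKM in WT and to 269 to 772 FPKM in KO. Of the 9 endothelial markers 7 were below 0, and *Cdh5*, which encodes the endothelial junction protein VE-cadherin, was at 86.7, 92.4 and 91.3 FPKM in WT and at 50.8, 42.5 and 38.1 FPKM in KO (−1.03, SE 0.19, limma p = 0.000303, exact permutation p = 0.1, adjusted p = 0.841). The *Cdh5* groups lay apart before and after the length and GC correction (−0.95 after it). The 8 fibroblast markers all had fold changes below 0, summed to 1664 to 2575 FPKM in WT and to 1191 to 1622 FPKM in KO, and 2 of them, *Col1a1* and *Col1a2*, were lower without overlap (5.70% of all genes tested were). Of the 8 pericyte markers 7 were below 0, and *Pdgfrb*, *Anpep* and *Cspg4* were lower without overlap. After the length and GC correction the groups overlapped in all 3, and in *Col1a1* and *Col1a2*, while the fibroblast marker *Dcn* was then lower without overlap. The pericyte sum was 820 to 1325 FPKM in WT and 860 to 984 FPKM in KO, most of it *Vtn*, which is also on the list of other basement membrane genes, and without *Vtn* it was 234 to 330 FPKM in WT and 253 to 362 FPKM in KO. The fibroblast sums did not overlap between the groups, nor did the sums of the 6 astrocyte markers (exact permutation p = 0.1 for each). These 6 were all below 0 and summed to 575 to 671 FPKM in WT and to 431 to 477 FPKM in KO. Of these, *Gfap* and *Gja1* were lower without overlap (33.3%), and after the correction *Gja1* stayed apart, with a log2 fold change of −0.50 before and −0.63 after it, and *Gfap* did not. None of these markers was at 0 in all libraries, and the part of these cells in the lower members was not tested.

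In the lists of genes that assemble and anchor the membrane, 1 gene of each list was lower at an unadjusted limma p under 0.05, which is 4.76% to 6.25% of a list against 3.11% of all genes tested. Lower without overlap were 3 assembly genes (14.3%), 0 receptors, 2 glycosylation genes (12.5%) and 1 of the other basement membrane genes (5.56%), against 5.70% of all genes tested, and 2 glycosylation genes were higher without overlap (against 5.37%). Of 21 assembly enzymes and export factors tested (collagen hydroxylases, chaperones and the peroxidase that crosslinks collagen IV among them), 14 were below 0 with a median of −0.13, and 1 was lower and 1 higher at an unadjusted limma p under 0.05. The lower one was *Sec24d*, a COPII coat subunit that procollagen needs to leave the endoplasmic reticulum, at 17.3, 19.7 and 17.2 FPKM in WT and 11.0, 9.50 and 14.9 FPKM in KO (−0.59, limma p = 0.0221, exact permutation p = 0.1). Of 18 integrins, syndecans and other receptors tested, 13 were below 0, the median was −0.041, and 1 was lower at that p. Among 16 genes for the sugar chain by which dystroglycan holds laminin, 9 were below 0 with a median of −0.096, and 1 was lower and 1 higher at that p. The lower one was *B4gat1*, the enzyme that primes that chain, at 39.4, 33.0 and 37.4 FPKM in WT and 24.1, 26.5 and 27.0 FPKM in KO (−0.48, limma p = 0.0258, exact permutation p = 0.1). The higher one was *Dpm3*, a subunit of the enzyme that makes the mannose donor, at 41.9, 48.8 and 46.3 FPKM in WT and 115, 51.5 and 91.2 FPKM in KO (0.82, limma p = 0.0147, exact permutation p = 0.1). The KO libraries were below all WT libraries in the first and above them in the second. The 2 highest *Dpm3* values lay in KO 1 and KO 3, the libraries rich in choroid plexus transcripts, whose part in them was not tested, and 0 genes of that list were higher at that p without KO 1 or without KO 1 and KO 3, 1 was without KO 3 and 3 were without KO 2. Of all genes tested, 1.42%, 4.80%, 3.53% and 7.31% were higher at that p in these settings, in that order. Of 18 other basement membrane genes outside the 38, 10 were below 0, the median was −0.16, and 1 was lower at that p. The other genes behind these counts, *Tmem38b* (higher, assembly), *Sdc3* (lower, receptors) and *Ltbp4* (lower, other basement membrane genes), overlapped between the groups and are named after their values were seen. The signs of these medians depended on the setting. The assembly median was 0.024 with the length and GC correction and 0.081 without KO 2, the receptor median 0.080 without WT 1 and 0.12 without KO 2, and the glycosylation median 0.050 without WT 3 and 0.079 without KO 1 and KO 3. The median of the other basement membrane genes was 0.017 with no filter. With libraries left out, 0 to 4 assembly, 0 to 5 receptor, 0 to 1 glycosylation and 0 to 3 other basement membrane genes were lower at that p, against 1.42% to 8.01% of all genes tested. The 4 and the 5 came without KO 1 and KO 3, where the share of all genes was 8.01%, and without KO 1 none of the lists held a lower one.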

How the data were processed

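Brain microvessel RNA of 3 WT and 3 TEKCRIF1 KO mice was extracted with TRIzol, and paired-end HiSeq X10 reads came from NEBNext Ultra II Directional libraries. The authors trimmed reads (FastQC, FASTX_Trimmer, BBMap), mapped them with TopHat (mm10 in the submitters' processing notes) and deposited FPKM values, 1 per gene symbol and library. How fragments were counted by strand and whether libraries were scaled to each other are not given in the sources used here. FPKM holds no counts, so count tests were not run, and overlapping genes such as *Col4a1* and *Col4a2* could share reads.

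Libraries were grouped by labelled genotype. Log2(FPKM + 1) was fitted with limma 3.58.1 (trended variance) in R 4.3.3 for 14247 genes (mean of 1 FPKM or more over all libraries), and p-values were adjusted by Benjamini-Hochberg over all of them. Single values were tested with exact two-sided permutation tests, and 20 chain shares and ratios were adjusted together. Python 3.11.15, numpy 2.4.6, pandas 2.3.3 and scipy 1.17.1 were used. Lengths and GC content came from the longest GENCODE M21 transcript (GRCm38), matched for 22796 symbols, which need not be the transcript the authors used, and their trends were removed with loess (span 0.3, 4 rounds). Depth was estimated from the spacing of values under 0.3 FPKM, and the limit of 3 fragments allows for counting error alone. The fit was tested on simulated data. Every member was named, together with the listed assembly, receptor, glycosylation and other basement membrane genes that had an unadjusted p under 0.05 without overlap, at most 4 a list. Of 150 symbols listed for pathways and markers, including alternative symbols of the same gene, 13 were not found in the files. Members, lists and tests were chosen with earlier results of these data known. Alternatives were other filters, pseudocounts, scalings and variances, a replicate block, the length and GC correction, and leaving out libraries. The replicate numbers come from sample titles, and the libraries' own labels carry other numbers. Same-numbered WT and KO libraries had correlations of 0.037, 0.027 and 0.002 between their deviations, so the numbers were not taken to pair the mice.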

Additional observations from a re-analysis of the deposited data

How the results depend on the processing

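Of the 16 alternatives, 1 was chosen after seeing the data, the comparison without KO 1 and KO 3. Counts of lower members with an unadjusted limma p under 0.05 (9 as reported) were 5 with the replicate block, 5 with the length and GC correction, 5 with both together, and 2 to 13 when libraries were left out. The share of all genes lower at that p was 3.03%, 2.45% and 2.5% in the first 3 and 1.42% to 8.01% with libraries left out. Without KO 2, which gave the 13, it was 5.83%. In the other settings 7 members were lower with a minimum mean of 5 FPKM (of 29 tested), 7 with median scaling and 7 without the variance trend. With quantile normalization they numbered 12, with no filter 13 (of 38) and with a pseudocount of 0.1 they stayed at 9. The share of all genes lower at that p was 2.68% to 3.57% in these. Higher members numbered 0 to 2 when libraries were left out, the 2 without KO 2, where 7.31% of all genes were higher at that p. Members lower without overlap (13 as reported) numbered 6 with the correction, with or without the block, and 13 to 23 when libraries were left out. Of all genes, 4.98% were lower without overlap with the correction, 8.90% to 14.3% with 1 library left out, and 32.6% without KO 1 and KO 3, which gave the 23. Members higher without overlap (1 as reported) numbered 0 with a minimum mean of 5 FPKM, 0 with quantile normalization and 1 to 6 when libraries were left out, the 6 without KO 2, where 16.3% of all genes were higher without overlap. The median was −0.053 with the correction, with or without the block. The correction, with or without the block, turned the sign of *Col18a1* (0.095), *Fbln2* (0.025), *Nid2* (0.011), *Papln* (0.15) and *Sparc* (0.022), of which 0 were called. Leaving out libraries turned the sign of members not called, over the following ranges: *Agrn* −0.46 to 0.29, *Col18a1* −0.57 to 0.0088, *Col4a5* −0.67 to 0.079, *Fbln5* −0.26 to 0.66, *Frem2* −0.022 to 0.25, *Hmcn1* −0.71 to 0.20, *Lama3* −0.13 to 0.14, *Lama5* −0.13 to 0.26, *Nid2* −0.45 to 0.024, *Npnt* −0.19 to 0.61, *Papln* −0.47 to 0.65, *Sparc* −0.27 to 0.10 and *Tinagl1* −0.58 to 0.42. It also turned differences in the log2 ratio of *Hspg2* to *Agrn* (−0.38 to 0.24) and of *Nid1* to *Nid2* (−0.44 to 0.041), and in the shares of *Col4a2* (−3.54 to 0.108 percentage points), *Col4a5* (−0.45 to 0.772), *Lama1* (−2.39 to 0.964) and *Lamb3* (−0.0916 to 0.0572). The cause of these changes was not tested. Estimated depth limits *Lamb3*, *Papln*, *Col4a3* and *Col4a4*, and 3 mice against 3 limit every p-value, which sets a difference against the spread between these mice. In the main limma fit the spread of each gene was drawn towards a trend over all genes tested.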

Other observations

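Further cell type markers were measured in the same libraries. Microglial markers, 5 in number, summed to 94.1 to 106 FPKM in WT and 77.1 to 90.3 FPKM in KO, without overlap (exact permutation p = 0.1, the smallest 3 mice against 3 can give). The sums overlapped for the 5 neuronal markers (157 to 282 FPKM in WT and 103 to 256 FPKM in KO), the 4 oligodendrocyte markers (225 to 335 and 109 to 310 FPKM) and the 4 erythroid markers found (1765 to 2425 and 1209 to 2341 FPKM).

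Summed over the list, the 38 basement membrane genes took up 2068 to 2766 FPKM in WT and 1829 to 2246 FPKM in KO (exact permutation p = 0.3). Without *Sparc*, the sums were 1508 to 2028 FPKM in WT and 1281 to 1582 FPKM in KO (exact permutation p = 0.2).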
